A study of Arabidopsis thaliana with 9 samples.

Results

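The flowering-time regulators SNZ (SCHNARCHZAPFEN, AT2G39250, chromosome 2) and GI (GIGANTEA, AT1G22770, chromosome 1) were followed across 2 Arabidopsis thaliana accessions and their hybrid. The members were the probe sets that the platform annotation assigns to either gene, which gave 1 probe set for each: 2 of the 13356 genes that a probe set names singly, and 2 of 22746 probe sets. Seedlings without roots were sampled at 10 DAS, in the unit of the labels, in 3 groups with 3 biological replicates each and 1 single-colour Affymetrix array per replicate: the accession Col, the accession C24, and the F1 hybrid of Col and C24. All groups grew at 22 degrees C with 16 h and 8 h phases of the daily photoperiod. The labels name no treatment or transgene. They do not give the hour of sampling, the number of plants in a sample, or the direction of the cross behind the F1, and nothing in them says whether the replicates were sown or harvested apart, so the p-values below measure the spread between these samples.

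Flowering in Arabidopsis is set by the balance between promoters and repressors that read day length, temperature, plant age and gibberellin. SNZ encodes a transcription factor of the AP2 class that, with its close relative SMZ and the TOE proteins, represses floral genes such as FT; transcripts of this class are targets of the microRNA miR172, whose level rises as a plant ages. GI encodes a large plant-specific protein of the circadian clock with an evening peak of expression, and under long days it acts with the F-box protein FKF1 to release the gene CO, the activator of FT, from repression.

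The deposited values were linear intensities, here quantile normalized and called signals, and log2 differences come from a limma fit over all 15922 probe sets that passed a filter on low signal. Before any result, the 3 replicate 1 arrays have to be named: they stood apart from the other 6 on the second principal component (19.4% of the variance), with scores of 29.4 to 34.4 against -31.4 to -4.87. The first component, with 38.95%, separated the groups and placed F1 between its parents. As a check of the labelled tissue, 5 of 8 green shoot markers were named by a probe set, and their summed signal ran from 18302 to 20606 over the 9 arrays. Of 9 root markers 3 were named, none of the 7 floral organ and 6 seed markers was, and these last tissues were not checked. In whole shoots, fewer cells that express a gene and less RNA per cell cannot be told apart.

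SNZ had the higher signal in C24. Its signal was 47.5, 23.2 and 21.0 on the Col arrays (replicates 1, 2 and 3), 114 on the first C24 array, 75.1 on the second and 78.8 on the third. It was 77.7, 55.6 and 23.9 on the F1 arrays. Every C24 array lay above every Col array, as in this direction 13.9% of all tested probe sets did, while the F1 arrays spread from within the Col range to within the C24 range. All 9 values lay above 11.1, the signal of the filter.

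**Figure D1:**
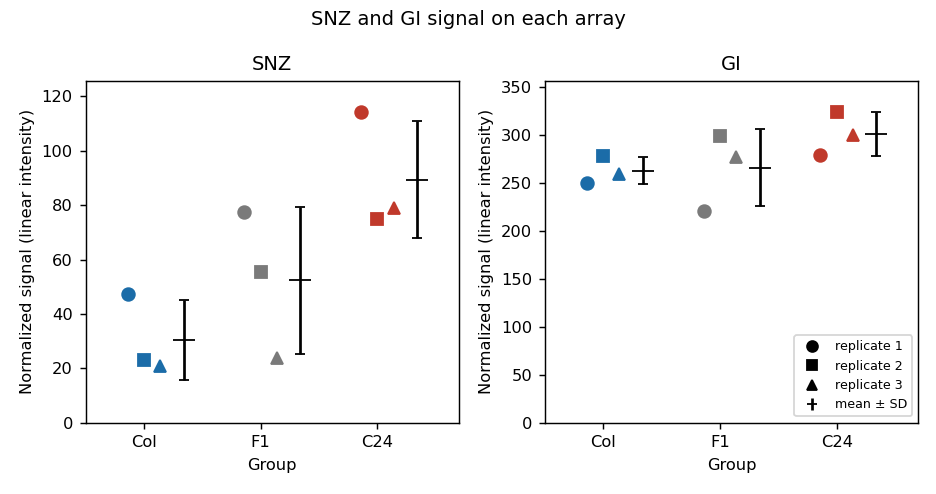
Normalized linear signal of SNZ (left) and GI (right) on each of the 9 arrays, with the group on the horizontal axis, the symbol shape giving the replicate number, and bars giving the mean ± SD of 3 arrays. SNZ lay at 21.0 to 47.5 in Col and 75.1 to 114 in C24 with F1 spread between 23.9 and 77.7, while GI stayed between 221 and 323 on all arrays.

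The mean SNZ signal was 30.6 ± 14.7 in Col, 52.4 ± 27.0 in F1 and 89.4 ± 21.6 in C24 (SD, n = 3). The order of the levels was thus Col, F1, C24, and only the ends of this order passed the test. C24 was 3.08-fold above Col, a log2 difference of 1.62 ± 0.44 (SE) with a 95% interval of 0.65 to 2.60 and an adjusted p of 0.0486 in limma (Benjamini-Hochberg over 15922 probe sets). Higher calls at this threshold made up 3.56% of all tested probe sets in this comparison. Of the 567 probe sets called higher in C24, 158 had a larger difference than SNZ. For SNZ alone, an exact two-sided permutation test of the arrays gave p = 0.1, the smallest value that 3 arrays against 3 allow.

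The call for SNZ stood close to the threshold. It was lost without Col replicate 2 or 3, any C24 array or F1 replicate 2 (adjusted p up to 0.159), with the deposited scaling (0.0514), without the variance trend (0.0627) and with no filter (0.121). Across the 17 alternatives that could be fitted, including 1 without the 3 replicate 1 arrays (log2 difference of 1.81 ± 0.38, adjusted p = 0.043), the difference stayed positive, from 1.20 to 1.99, and 8 kept the call. The lowest adjusted p among them was 0.00418, with replicate number as a block.

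**Figure D2:**
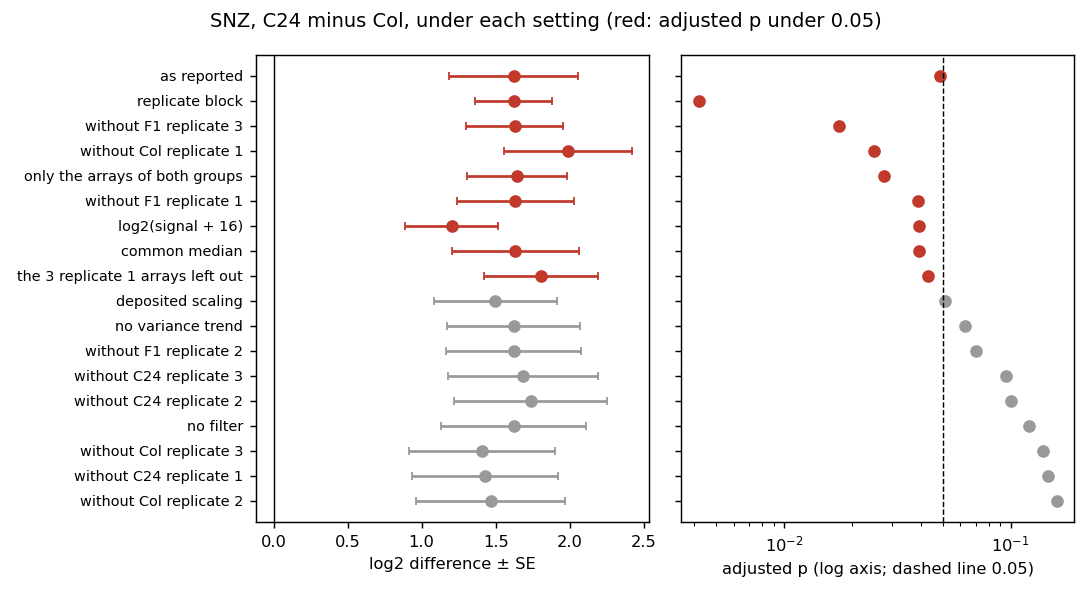
The SNZ difference between C24 and Col on the log2 scale (left, ± SE) and its adjusted p (right, log axis) as reported and under 17 alternatives, with settings that passed the threshold of 0.05 in red and the others in grey. The log2 difference lay between 1.20 and 1.99 throughout, and the adjusted p fell on both sides of the dashed line.

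No comparison of the F1 hybrid passed the test for SNZ. Against Col the log2 difference was 0.72 ± 0.44 (95% interval -0.26 to 1.69, adjusted p = 0.689), in a comparison where 0.509% of all tested probe sets were called. Against C24 it was -0.90 ± 0.44 (-1.88 to 0.07, adjusted p = 0.435), where 2.08% were called. The average of both parental mean signals was 59.997. The mid-parent value of the fit was made otherwise: each parent's mean log2 signal was taken back to the linear scale before averaging. The F1 differed from this fitted value by -0.31 ± 0.39 (-1.19 to 0.57, adjusted p = 0.995), where 0.0377% were called. These limma intervals come from a fit that leaves out the replicate number, and leave room for an F1 at the level of Col, of C24 or of the mid-parent value. With replicate number as a block in limma the SE fell to 0.26. The unadjusted p was then 0.0216 against Col and 0.00683 against C24, and neither passed after adjustment (0.317 and 0.128). With single arrays left out the difference ran from 0.36 (without F1 replicate 1) to 1.21 (without F1 replicate 3) against Col, and from -1.27 to -0.42 against C24 for the same arrays, and neither passed.

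On a scale with 0 at the Col mean and 1 at the C24 mean, the F1 arrays stood at 0.80, 0.43 and -0.11 for replicates 1, 2 and 3, and their mean at 0.37. The F1 array of replicate 1 thus lay within the range of the C24 arrays and that of replicate 3 within that of the Col arrays. This scale sets each F1 array against all parental arrays, and replicate 1 was the highest array in both parents too. Against same-numbered arrays, F1 was above Col by 0.71, 1.26 and 0.19 on the log2 scale. From C24 it differed by -0.56, -0.43 and -1.72. Without F1 replicate 3 the difference from the mid-parent value turned from -0.31 to 0.18 ± 0.34 (adjusted p = 0.984).

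**Figure D3:**
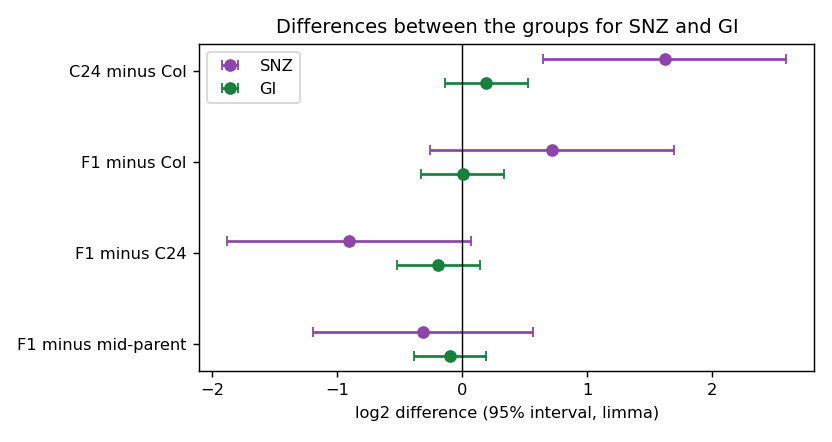
Log2 differences between the groups for SNZ (purple) and GI (green) with 95% intervals from the limma fit, 1 row per comparison. The interval of SNZ in C24 minus Col, from 0.65 to 2.60, lay above 0, and the other 7 intervals held 0.

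SNZ varied more between replicates than most probe sets. Its pooled SD within groups was 0.65 on the log2 scale, against a median of 0.25 over all tested probe sets, and 93.9% of them varied no more. Replicate 1 was the highest array of its group in Col, C24 and F1 alike, with log2 deviations from the group mean of 0.74, 0.38 and 0.73. The same held for 10.8% of all tested probe sets, and replicate 1 arrays were those set apart by the second principal component.

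GI had a similar signal in all groups. It was 250, 278 and 259 on the Col arrays for replicates 1, 2 and 3. It was 278.2, 323 and 300.0 on the C24 arrays, and 221, 299 and 276 on the F1 arrays. The C24 arrays lay above the Col arrays by a narrow margin, from 277.5 for the highest Col array to 278.2 for the lowest C24 array, as 13.9% of tested probe sets did in this direction, and the F1 arrays covered the range of Col and overlapped that of C24.

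The mean GI signal was 262 ± 14.1 in Col, 265 ± 40.2 in F1 and 301 ± 22.6 in C24 (SD, n = 3). No neighbours in this order, nor its ends, differed past the threshold in limma. C24 exceeded Col by 0.20 ± 0.15 on the log2 scale (95% interval -0.14 to 0.53, adjusted p = 0.513), or by 0.32 with a common median (adjusted p = 0.233). The exact two-sided permutation test of that difference gave p = 0.1, again the smallest possible value. F1 differed from Col by 0.01 ± 0.15 (-0.32 to 0.34, adjusted p = 0.997) and from C24 by -0.19 ± 0.15 (-0.52 to 0.14, adjusted p = 0.681). The latter was -0.30 with a common median and -0.062 without F1 replicate 1, and passed in neither. The average of both parental mean signals was 281. Against the mid-parent value of the fit the F1 was at -0.09 ± 0.13 (-0.38 to 0.19, adjusted p = 0.995). The 4 intervals hold no difference larger than 0.53 on the log2 scale in either direction.

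GI varied little, with a pooled SD within groups of 0.15 on the log2 scale, and 15.6% of tested probe sets varied no more. Its replicate pattern ran opposite to that of SNZ. Replicate 1 was the lowest array of its group in Col, C24 and F1, with log2 deviations of -0.07, -0.11 and -0.25, as it was for 10.3% of all tested probe sets. Replicate 2 was the highest array in each group. Without the 3 replicate 1 arrays GI was 0.22 ± 0.19 higher in C24 than in Col on the log2 scale (adjusted p = 0.619).

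The other genes of the flowering pathways were taken from 9 lists of 166 loci in all, of which 21 were named by a probe set and 16 passed the filter, SNZ and GI among them. In C24 against Col 1 of the 16, SNZ, passed the test as higher and 0 passed as lower, where 8.47% of all tested probe sets were called in either direction and 4.91% as lower. At an unadjusted p under 0.05 in limma there were 7 of 16, against 21.6% of all tested. The median log2 difference of the 16 was 0.11, against 0.03 over all tested probe sets. In the 3 comparisons of F1, 0 of the 16 passed in limma, with 1, 2 and 1 at an unadjusted p under 0.05 against Col, C24 and the mid-parent value, where 8.92%, 13% and 5.04% of all tested did so.

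SMZ (AT3G54990), the repressor most closely related to SNZ and the other gene of the AP2-like list with a tested probe set, was at 14.7, 12.1 and 10.5 in Col, 21.4, 24.01 and 24.7 in C24 and 19.2, 13.3 and 12.996 in F1. All C24 arrays lay above all Col arrays, as for 13.9% of tested probe sets, and above all F1 arrays, as for 11%. The Col signals were close to the filter level of 11.1, 1 of them below it, so the size of the difference is uncertain. On the log2 scale C24 minus Col was 0.92 ± 0.25 and missed the threshold (adjusted p = 0.0541), and with log2(signal + 16) it was 0.47 (0.043). Over 16 alternatives the adjusted p ran from 0.0205, without the variance trend, to 0.142, without Col replicate 2, and 2 passed. SNZ and SMZ had their lowest mean in Col and their highest in C24, with F1 between. They were 2 of the 8 loci on the AP2-like list, and the others were not named by a probe set. No F1 comparison passed in limma for either gene (lowest adjusted p = 0.315, SMZ in F1 against C24). The share of all tested probe sets with this order was not counted. F1 also lay between its parents on the first principal component of those probe sets.

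Beside GI, the clock list held 2 tested genes. TIC (TIME FOR COFFEE), a regulator of clock gene amplitude, was at 289 ± 9.99 in Col, 270 ± 20.9 in F1 and 229 ± 9.81 in C24. The C24 arrays lay below all Col arrays, as for 12.3% of tested probe sets, and below all F1 arrays, as for 8.94%. Its log2 difference between C24 and Col of -0.34 ± 0.13 did not pass (adjusted p = 0.143), though it did with no filter (0.0491). AT5G52660, listed here without a symbol, was at 67.9 ± 16.2, 66.9 ± 23.1 and 75.3 ± 11.5 in the same groups (C24 against Col adjusted p = 0.804).

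In the photoperiod list, SPY, an O-fucosyltransferase known to act with GI and to restrain gibberellin signalling, was at 180 ± 37.2 in Col, 146 ± 15.5 in F1 and 133 ± 16.8 in C24. Its log2 difference between the parents was -0.43 ± 0.19 (adjusted p = 0.228). FD, the bZIP partner of FT at the shoot tip, was at 15.5 ± 3.16, 16.3 ± 2.92 and 18.3 ± 5.09 (adjusted p = 0.72). AT1G69570, also listed without a symbol, was at 28.4 ± 5.80, 25.1 ± 1.16 and 20.4 ± 8.84 (adjusted p = 0.348). The arrays of Col and C24 overlapped for each of these 3 genes.

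Of the remaining lists, the gene with the smallest p between the parents is given. AGL24, a MADS-box promoter of flowering, was at 31.1, 33.4 and 54.4 in Col, 19.0, 18.7 and 22.9 in C24 and 26.3, 15.2 and 15.7 in F1. Its Col arrays lay above all others, as 12.3% of tested probe sets did against C24 and 7.6% against F1. The log2 difference between C24 and Col was -0.93 ± 0.29. It missed the threshold (adjusted p = 0.087), and passed it with the deposited scaling (0.0409). F1 minus Col was -1.06 ± 0.29 in limma (unadjusted p = 0.00482, adjusted 0.231). Against the mid-parent value F1 was at -0.67 ± 0.26 (unadjusted p = 0.0274, adjusted 0.989). LD (LUMINIDEPENDENS), of the autonomous pathway that lowers the repressor FLC, was at 91.7 ± 19.2 in Col and 59.1 ± 13.8 in C24 (log2 difference -0.64 ± 0.22, adjusted p = 0.107). LD passed in 1 of 17 alternatives, with replicate number as a block (adjusted p = 0.0404). SLY1, the F-box protein that directs DELLA repressors to breakdown in gibberellin signalling, was at 149 ± 18.4 in Col, 152 ± 1.06 in F1 and 203 ± 24.2 in C24 (log2 difference between the parents 0.45 ± 0.15, adjusted p = 0.104).

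**Figure D4:**
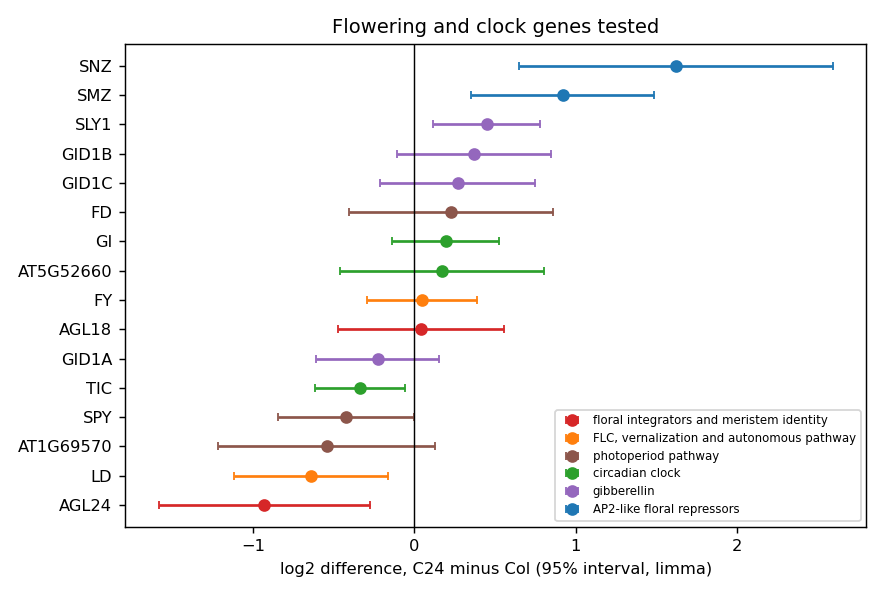
Log2 difference between C24 and Col with its 95% interval for the 16 tested genes of the flowering and clock lists, ordered by difference and coloured by list. SNZ at 1.62 and SMZ at 0.92, the latter from Col signals near the filter, were the highest, AGL24 at -0.93 the lowest, and SNZ alone had an adjusted p under 0.05.

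The remaining 5 named list genes did not pass the filter, and 5 tested ones (FY, AGL18, GID1A, GID1B and GID1C, named outside the rule, after their values were seen, to complete the 16) had log2 differences between the parents of 0.05, 0.04, -0.23, 0.37 and 0.27, none past the threshold. The lists of SPL genes and of photoreceptors had no locus named by a probe set, and FT, CO, FLC, SOC1, CCA1, LHY and TOC1 were likewise unnamed, so these genes are not analysed here.

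Of the 3 named root markers, PYK10 had the higher mean in C24, as SNZ did, while EXPA18 and EXPA7 had the higher mean in Col. PYK10, a beta-glucosidase of roots and hypocotyls, was at 279 ± 37.7 in Col, 654 ± 148 in F1 and 1362 ± 427 in C24, and was higher in C24 than in Col with an adjusted p of 0.000241 in limma. The summed signal of the 3 named root markers was 267 to 336 in Col, 553 to 834 in F1 and 1033 to 1850 in C24, most of it PYK10. EXPA18 and EXPA7, of root hairs, had lower means in C24 (9.601 ± 3.00 and 2.30 ± 1.16) than in Col (19.9 ± 6.69 and 8.21 ± 5.46). None of the 3 was at 0, but EXPA7 did not pass the filter, and the C24 mean of EXPA18 lay under the filter signal of 11.1. The size of these lower means is therefore uncertain. The array order of PYK10 was not that of SNZ. From replicate 1 to replicate 3 PYK10 rose from 1017 to 1840 in C24 and from 526 to 816 in F1. SNZ was highest on replicate 1 in both groups. The part of root tissue in the SNZ difference was not tested. The ratio of 3' to 5' signal of the ubiquitin control, a sign of RNA quality, was 2.34 to 5.01 in Col, 2.34 to 4.10 in F1 and 3.29 to 8.22 in C24, so the groups overlapped, as they did for GAPDH (0.856 to 2.01, 0.799 to 1.12 and 0.845 to 1.79). For actin the ratio was 3.33 to 23.7 in Col, 6.395 to 10.4 in F1 and 1.28 to 3.61 in C24, so that C24 lay below F1 and overlapped Col at the edge. On the deposited scale the 3' probe set of this ratio averaged 1256 in Col, 1050 in F1 and 141 in C24. The 5' probe set averaged 179, 124 and 64.1 in the same groups. Another 3' actin control averaged 2799, 2328 and 358. The part of this ratio in the result was not tested. The 25S ribosomal RNA control was at 503 to 2464 in Col, 41.4 to 1807 in F1 and 44.9 to 217 in C24 on the deposited scale, and its part was not tested either.

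The genes whose pattern was most like that of each member were ranked by Pearson's r of the log2 signal over the 9 arrays, among the 8808 other tested probe sets that name 1 gene. For SNZ these were AT3G01210 (r = 0.973), AT4G23880 (0.966), AT1G65870 (0.965), AT1G05910 (0.961) and CYP78A9 (0.955), a cytochrome P450 gene. The 9 arrays fall into 3 groups and share the offset of replicate 1, so these r values describe the arrays and carry no test. In CYP78A9 the signal was 57.0, 27.3 and 13.4 in Col, 116.5, 97.9 and 64.2 in C24 and 78.6, 55.7 and 25.3 in F1. As in SNZ, replicate 1 was highest in each group and the F1 array of replicate 3 lay within the Col range. The genes were picked by r over these same arrays, which favours such a match. In AT1G05910 the highest C24 array was that of replicate 3 (149, against 145 for replicate 1). The log2 difference of CYP78A9 between C24 and Col was 1.71 ± 0.53 (adjusted p = 0.0836). None of the 5 passed the test between the parents.

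For GI the most similar were AT4G02750 (r = 0.936), AT2G41480 (0.935), AT5G65850 (0.921), AT4G36520 (0.91) and AT2G39500 (0.903). These genes were picked by r over the same arrays, which favours a shared pattern. In each of these genes replicate 1 was the lowest of the 3 F1 arrays and of the 3 C24 arrays, as it was in GI. In Col this held for AT5G65850 and AT4G36520 but not for AT4G02750. For AT2G41480 (11.5, 10.4 and 9.90) and AT2G39500 (37.0, 35.7 and 34.6) replicate 1 was the highest Col array. AT4G36520, for one, was at 63.9 on the F1 array of replicate 1 against 100.5 and 92.5 on the other F1 arrays. Its signal was 59.8, 88.4 and 81.7 in Col and 102, 120.2 and 118 in C24, and its log2 difference between the parents of 0.58 ± 0.21 did not pass (adjusted p = 0.142), nor did that of the other 4.

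**Figure D5:**
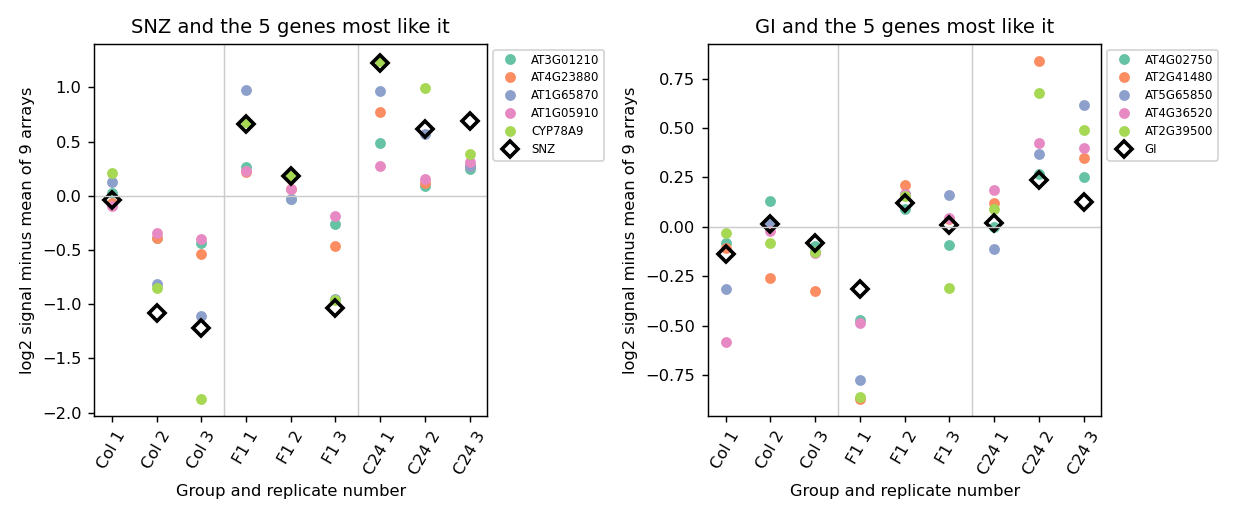
Log2 signal minus the mean of the 9 arrays for SNZ (left) and GI (right), as open black diamonds, and for the 5 genes most like each, as coloured points, by group and replicate number. Replicate 1 was the highest array of Col and of F1 for SNZ and the 5 genes like it, and the F1 array of replicate 1 was the lowest of all for GI. The genes were picked by r over these same arrays.

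The neighbours of each member on its chromosome were read as the 5 genes on either side that a probe set names. Around SNZ 6 of these 10 were tested, with a median log2 difference between C24 and Col of -0.21. JAL22 (AT2G39310), a jacalin-related lectin gene 7 genes from SNZ, was the 1 called gene among them, where 3.56% of all tested probe sets were called higher and 8.47% in either direction. Its signal was 117, 122 and 133 in Col, 339, 428 and 467 in C24 and 217, 267 and 259 in F1, so that the 3 groups did not overlap. Of all tested probe sets, 13.9% lay higher on every C24 array than on every Col array, 6.98% higher on every F1 array than on every Col array, and 11% lower on every F1 array than on every C24 array. It was 3.30-fold higher in C24 than in Col (log2 difference 1.72 ± 0.16, adjusted p = 0.000126). It was also higher in F1 than in Col, by 0.998 ± 0.16 on the log2 scale (adjusted p = 0.026), a direction called for 0.408% of tested probe sets. That second call was lost when a Col array, an F1 array, C24 replicate 2 or the 3 replicate 1 arrays were left out (adjusted p up to 0.152). Directly beside SNZ, AT2G39260 was at 67.6 ± 2.47 in Col and 56.5 ± 6.67 in C24 (adjusted p = 0.41), and AT2G39240 on the other side did not pass the filter. Around GI 7 of 10 neighbours were tested, with log2 differences between C24 and Col from -0.56 to 0.30, and 0 were called in any of the 4 comparisons in limma.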

How the data were processed

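Total RNA was labelled with biotin and hybridised to Affymetrix arrays, 9 in all, per the labels' protocols. The authors deposited a linear intensity for each probe set on each array. GCOS is the software that the submitters' processing notes name, with version and settings not given in the sources used here. Each deposited column had a mean of 150.01 to 150.02 with 2% of values left out at each end. The median log2 signal spanned 0.24 over the arrays, above a limit of 0.2, so the arrays were quantile normalized (limma 3.58.1, R 4.3.3) without the 64 control probe sets. Signals under 1 were raised to 1 before log2. A filter at the 30th percentile of the averaged log2 values, equal to a signal of 11.1, kept 15922 of 22746 probe sets. A limma fit with a mean per group (lmFit, eBayes with trend, Benjamini-Hochberg, threshold 0.05) gave all comparisons, with the variance of the linear mid-parent value by the delta method. The fit was tested on simulated data. Detection calls were not used. Precision is limited by having 3 arrays per group.

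Probe sets were named through the platform annotation, updated to TAIR10.1 symbols: 13513 named 1 gene, 503 several, and 8730 were unlisted. Probe sequences were not used here, so differences between C24 sequence and probe were not tested. The brightest probe set stood for a gene. Named were SNZ, GI, every tested gene of the AP2-like, clock and photoperiod lists, the gene with the smallest p of each other list, the 5 genes most like each member and 5 named neighbours a side. The members, lists and rules were chosen with earlier results of these data known. Alternatives were 2 other scalings, log2(signal + 16), 2 other filters, no variance trend, replicate number as a block, fewer arrays and a log2 mid-parent value. Leaving out the 3 replicate 1 arrays was added after seeing the data.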

Additional observations from a re-analysis of the deposited data

How the results depend on the processing

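For SNZ in C24 against Col the log2 difference was 1.498 with the deposited scaling, 1.62 with no filter and 1.62 without the variance trend, all past no threshold, and 1.41 to 1.99 with single arrays left out. The filter at the 50th percentile removed SNZ. Against the mid-parent value SNZ ran from -0.68 to 0.18 with single arrays left out. GI in F1 against Col ran from -0.085 to 0.13, and against the mid-parent value from -0.19 to 0.033; neither passed in any of 18 alternatives each. AT5G52660 between the parents ran from -0.047, without Col replicate 2, to 0.29. The cause of these turns was not tested. Of the flowering and clock genes, 0 to 1 passed between the parents in limma with single arrays left out, 0 with the filter at the 50th percentile, and 2 with log2(signal + 16) (SNZ and SMZ). Arrays with the same replicate number deviated together at r = 0.013 to 0.494, not above 0.1 in every pair, and not every array correlated best with its own number, so the numbers were not taken as pairing. The pair below 0.1 was replicate 2 of C24 and F1, and all pairs of Col with C24 and of Col with F1 were above it. With the replicate block 2 list genes passed, SNZ (adjusted p = 0.00418) and LD (0.0404), and 1735 probe sets did, of which 43.6% were higher in C24. For SNZ the block lowered the SE from 0.44 to 0.26, and F1 still passed neither against Col (adjusted p = 0.317, unadjusted 0.0216) nor against C24 (0.128, unadjusted 0.00683). Between same-numbered arrays SNZ in F1 was above Col by 0.71, 1.26 and 0.19 on the log2 scale and differed from C24 by -0.56, -0.43 and -1.72.

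Over all probe sets, 1348 passed between C24 and Col, 803 to 1320 with single arrays left out and 586 without the 3 replicate 1 arrays. For F1 against Col 81 became 38 to 79 and 30, and for F1 against C24 331 became 169 to 340 and 119, or 214 with the filter at the 50th percentile. The 6 calls against the mid-parent value became 0 to 5 with single arrays left out, and 0 without the replicate 1 arrays and with the replicate block. They became 2 with the filter at the 50th percentile, 3 with no filter and 34 where the mid-parent was averaged on the log2 scale. Of the calls between the parents, 42.1% were higher in C24, against 34.3% with the deposited scaling and 51.8% with a common median, which moved the median of all tested probe sets from 0.03 to 0.10.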

Other observations

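Among the control probe sets, which entered no comparison, the one for the 3' end of actin was at 1256 ± 114 in Col, 1049.9 ± 81.7 in F1 and 141 ± 29.995 in C24 on the deposited scale (SD, n = 3), while the probe set for the middle of the same control was at 948 ± 141 in Col, 980.2 ± 23.3 in F1 and 889 ± 120.4 in C24. The 3' signal of F1 was thus closer to Col than to the mean of both parents.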
